A study of Homo sapiens with 18 samples.

Results

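The genes described here encode the translocase of the outer mitochondrial membrane (TOM) and 1 related cytosolic factor: TOMM40, TOMM22, TOMM20, TOMM70, TOMM5, TOMM6, TOMM7 and TOMM34. They were taken by symbol from a table of RNA sequencing counts, 8 of its 20263 genes. The set was selected on the counts of TOMM6, which had the largest fall of these genes in the H3B-8800 libraries labelled MHCC-97H, so differences between treated and control libraries under that label are given as a description. No p-value is given for them, and counts of genes called there stand only beside the share of all genes called. The table holds 18 libraries in 6 groups of 3. The labels name MHCC-97H (a liver cancer line), MDA-MB-231 (a breast cancer line) and HCT-116 (a colorectal cancer line), all of wild-type genotype and grown in high-glucose medium with 10% serum. Cells under each label were kept for 24 h with either the solvent DMSO as control or H3B-8800 at 20 nM. H3B-8800 is a compound that binds the SF3b complex and alters splicing through SF3B1. Groups are named by these labels throughout.

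Nearly all mitochondrial proteins are made in the cytosol and enter the organelle through the TOM complex. TOMM40 forms the channel, TOMM22 holds the complex together and acts as a receptor, and TOMM20 and TOMM70 are receptors that recognise precursor proteins, those with a cleavable presequence and the carrier-type precursors respectively. TOMM5, TOMM6 and TOMM7 are small subunits with a single membrane anchor that help assemble and stabilise the complex, and TOMM34 is a cytosolic co-chaperone of precursor proteins rather than a core subunit.

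The reading of TOMM6 counts depends on where its exons lie. TOMM6 (ENSG00000214736) occupies chr6:41787662-41789898 on GRCh38, plus strand, and its merged exons cover 637 bases, shorter than those of most genes in the table (length percentile 3.9). A second gene of the table, AL365205.1 (ENSG00000124593), runs on the same strand from 41780349 to 41790141, and its exons contain all 637 exonic bases of TOMM6. The 3 annotated AL365205.1 transcripts also carry exons of the upstream gene PRICKLE4. Of these, 2 are annotated as nonsense-mediated decay transcripts and 1 as a retained intron. The coding sequence of TOMM6 (225 bases, chr6:41787698-41789328 with the intron spliced out) is printed here because it is found unbroken in 3 of 3 AL365205.1 transcripts, so a read that falls inside it belongs to both genes. Bases of the first coding exon are in lower case and bases of the second, up to and including the stop codon, are in capitals.
TOMM6 coding sequence: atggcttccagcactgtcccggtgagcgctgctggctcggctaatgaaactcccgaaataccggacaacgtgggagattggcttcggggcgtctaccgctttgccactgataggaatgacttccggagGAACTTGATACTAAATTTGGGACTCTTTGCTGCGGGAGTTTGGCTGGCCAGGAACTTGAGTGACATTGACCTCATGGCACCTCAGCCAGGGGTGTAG

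**Figure D1:**
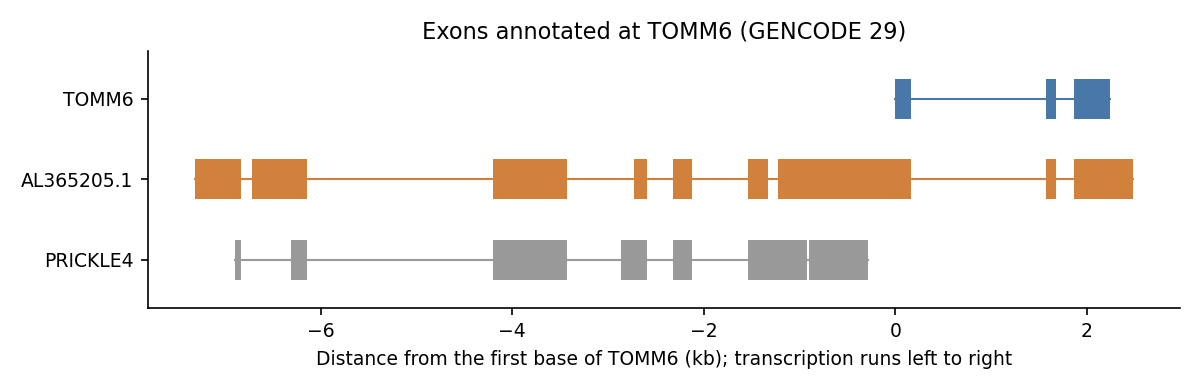
Merged exons (boxes) of TOMM6, AL365205.1 and PRICKLE4 in GENCODE 29, with the distance in kb from the first base of TOMM6 on the x axis and 1 gene per row. Each of the 3 merged exons of TOMM6 lies within an exon of AL365205.1, whose other exons lie upstream and largely coincide with those of PRICKLE4.

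AL365205.1 has 4479 exonic bases, of which 637 are shared with TOMM6, 2468 with PRICKLE4 and 1374 with neither. PRICKLE4 had between 0 and 41 counts in any library. USP49, on the opposite strand, shares 3 exonic bases with TOMM6 and 246 with AL365205.1. FRS3, also on the opposite strand, shares 132 with AL365205.1. USP49 and FRS3 had at most 501 and 208 counts in any library. How reads in shared exons were assigned, and whether strand was used, is not given in the sources used here, so the 2 genes are reported separately, as shares of their joint count, and as a sum. Among the other members, TOMM5 shares 520 exonic bases (14.3%) with AL138752.2 and 340 (9.33%) with AL513165.2 on the same strand, genes whose counts were at most 28 and 27 in any library against at least 1181 for TOMM5. TOMM70 shares 206 bases (3.82%) with LNP1 on the opposite strand. TOMM20 and TOMM22 have 4 and 6 named pseudogenes, so reads of near-identical copies may be split or lost there.

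Library totals ran from 28232315 to 41488278 counts, and every member passed the filter on low counts, the lowest member count being 180 (TOMM6). Levels below are in CPM, the counts of a gene divided by the TMM-adjusted size of its library. The defining markers went against the MHCC-97H and MDA-MB-231 labels, and those for the HCT-116 label were mixed. Under the MHCC-97H label all 5 liver genes and all 6 intestinal genes checked were at 0 counts in each of 6 libraries. All 5 liver genes had counts under MDA-MB-231 and HCT-116, summing to 15.6 to 24.0 and 19.1 to 27.4 CPM of the library total. Under the HCT-116 label 5 of 6 intestinal genes had counts, summing to 1610 to 1690 CPM of the library total, but so did the same number under the MDA-MB-231 label, at 1600 to 1660 CPM. Of the mesenchymal genes VIM averaged 1190 CPM under the MHCC-97H label against 19.6 (MDA-MB-231) and 22.1 (HCT-116). ZEB1 averaged 12.6, 18.3 and 18.8 CPM in that order, and SPARC was at most 0.0473 CPM under each label. Of the epithelial genes, in the same order, EPCAM averaged 16.3, 0.0176 and 0.0808 CPM. CDH1 averaged 0.00948, 22.1 and 26.1 CPM, and KRT19 0.0731, 810 and 827 CPM. Of the luminal breast genes GATA3 averaged 0, 49.8 and 50.9 CPM, and ESR1 was at most 1.03 CPM under each label. COL1A1 and COL1A2, fibroblast genes, summed to 34.6 to 36.6 CPM under the MHCC-97H label, with COL1A2 at 0, and to at most 0.36 CPM elsewhere, and PTPRC, a leukocyte gene, was at most 0.59 CPM in all libraries. Libraries numbered 2 under the HCT-116 label stood apart from their group by a chi-square per gene of 40.8 to 61.8, against 21.4 to 31.2 for all other pairs. For TOMM6 the library that stood apart was the MDA-MB-231 DMSO replicate 1, and fitted TOMM6 differences that involve it are given with and without it.

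TOMM6 was lower in the treated MHCC-97H libraries and AL365205.1 was higher. TOMM6 stood at 61.7, 65.5 and 67.3 CPM in the 3 DMSO libraries and at 8.29, 6.05 and 15.1 CPM in the 3 H3B-8800 libraries. The groups did not overlap, and the means were 64.8 ± 2.9 and 9.82 ± 4.72 CPM (SD, n = 3), a 6.61-fold lower mean. The fitted log2 difference was -2.72 with a standard error of 0.44, and 94 of 14234 tested genes had a value as low or lower. AL365205.1 went from 10.9 ± 0.584 to 40.9 ± 2.6 CPM (SD, n = 3), a log2 difference of 1.91 with a standard error of 0.44. Here too no treated library overlapped a control library, but in the opposite direction.

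In counts, TOMM6 had 1862, 1614 and 2180 in the MHCC-97H DMSO libraries and 329, 207 and 506 in the treated ones. AL365205.1 had 339, 251 and 362 in the DMSO libraries and 1724, 1406 and 1281 in the treated ones. The ranking of the 2 genes within a library was therefore inverted in each treated library. TOMM6 took 84.6%, 86.5% and 85.8% of the joint count in DMSO and 16.0%, 12.8% and 28.3% after H3B-8800. The widest of these 6 Wilson 95% intervals, which cover counting error only, ran from 26.3% to 30.4%, so the spread among the treated libraries was larger than counting error. The mean share was 85.6% ± 0.978 in DMSO and 19.1% ± 8.17 after treatment (SD, n = 3).

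**Figure D2:**
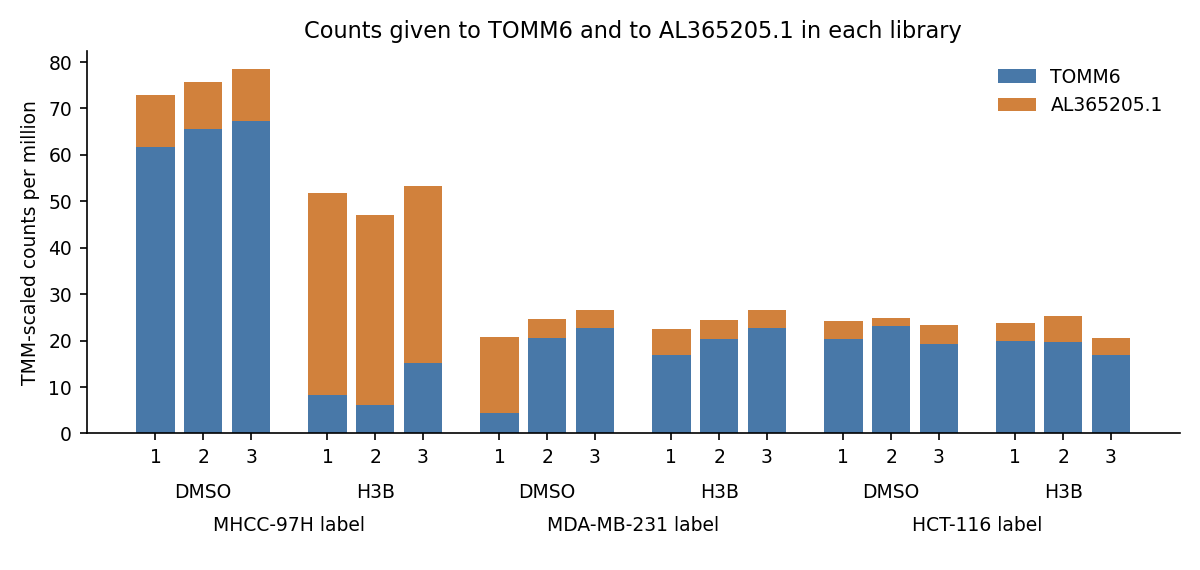
TMM-scaled CPM of TOMM6 and AL365205.1, stacked, with 1 bar per library (replicates 1 to 3 in each of the 6 groups). AL365205.1 makes up most of the bar in the 3 treated MHCC-97H libraries and in the MDA-MB-231 DMSO replicate 1, and TOMM6 makes up most of it in the other 14.

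The sum of both genes, which is the same however reads are split between these 2 rows, differed far less than TOMM6 alone. It could still depend on the counting rule, for example if reads were given to PRICKLE4. In the annotation used here all 637 exonic bases of TOMM6 are shared, so discarding shared reads would leave TOMM6 without counts. TOMM6 had at least 180 counts in every library. Counting shared reads for both genes would give AL365205.1 at least as many counts as TOMM6. AL365205.1 had fewer than TOMM6 in 14 of 18 libraries. The annotation release behind the counts is not given, and the counting rule was not tested. The sum was 72.9, 75.7 and 78.5 CPM in the MHCC-97H DMSO libraries and 51.8, 47.1 and 53.4 CPM in the treated libraries. The groups still did not overlap, with means of 75.7 ± 2.82 and 50.7 ± 3.25 CPM (SD, n = 3), a 1.49-fold lower mean. The sum adds reads and not transcripts, and AL365205.1 has 4479 exonic bases against 637 for TOMM6. Its fall is therefore not the fall in the number of transcripts. Per kb of merged exon, TOMM6 went from 102 to 15.4 CPM and AL365205.1 from 2.43 to 9.14 CPM in the MHCC-97H means. The fitted log2 difference of the sum was -0.58 with a standard error of 0.10. It was -0.45 with library totals in place of TMM factors. Because exon-level reads were not used here, whether TOMM6 transcript or only the assignment of reads differed cannot be told apart from these counts. In bulk RNA, fewer cells of a kind and less RNA per cell cannot be told apart either.

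The ratio of TOMM6 to TOMM7, another small subunit, does not depend on scaling. It does depend on how reads were split between TOMM6 and AL365205.1. Under the MHCC-97H label it rests on the same TOMM6 counts by which the set was selected. TOMM7 had 4.33, 3.94 and 4.02 counts for each TOMM6 count in the MHCC-97H DMSO libraries. It had 27.8, 37.6 and 15.6 in the treated libraries. On the log2 scale the TOMM6 to TOMM7 ratio averaged -2.03 ± 0.07 in DMSO and -4.66 ± 0.65 after treatment (SD, n = 3).

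Under the MDA-MB-231 label TOMM6 was lowest in an untreated library. Its level was 4.49, 20.6 and 22.8 CPM in DMSO and 16.9, 20.3 and 22.8 CPM after H3B-8800. The low value belongs to DMSO replicate 1, whose 180 TOMM6 counts stood beside 650 AL365205.1 counts, a TOMM6 share of 21.7% (Wilson 95% interval 19.0% to 24.6%), whereas the other 2 DMSO libraries had shares of 83.9% and 85.6%. The joint level of both genes in this library was 20.7 CPM, against 24.5 and 26.6 CPM in its fellow controls. Shares after treatment were 75.4%, 83.2% and 85.6%, and the difference in mean share, 17.7 percentage points, gave an exact two-sided permutation p of 0.8, where 3 against 3 cannot go below 0.1. Without DMSO replicate 1 the difference turned to -3.36 percentage points.

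The edgeR quasi-likelihood fit gave a TOMM6 log2 difference of 0.33 (SE 0.41, adjusted p = 0.9) under the MDA-MB-231 label, and -0.12 (SE 0.26, adjusted p = 1) without DMSO replicate 1. Without DMSO replicate 3 it was 0.68 (SE 0.46, adjusted p = 0.76 in edgeR). The sum of TOMM6 and AL365205.1 differed by 0.03 (SE 0.10, adjusted p = 0.98) on the log2 scale in the same model, and by -0.06 without DMSO replicate 1. The log2 ratio of TOMM6 to TOMM7 was -1.98 ± 1.37 in DMSO and -1.45 ± 0.29 after treatment (SD, n = 3, exact permutation p = 1). Neither treated nor control libraries formed a separate range for TOMM6 under this label.

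Under the HCT-116 label TOMM6 overlapped between groups, at 20.4, 23.2 and 19.2 CPM in DMSO and 20.0, 19.8 and 16.8 CPM after H3B-8800. The log2 difference from edgeR was -0.15 (SE 0.41, adjusted p = 1), an error wide enough to leave a change well beyond this value undetected. The fit estimates spread over all 18 libraries, so this error is not the spread of the HCT-116 libraries alone. Their SDs were 2.06 CPM in DMSO and 1.79 CPM after treatment (n = 3). TOMM6 held 84.5%, 93.0% and 82.3% of the joint count in DMSO and 84.0%, 78.6% and 81.5% after treatment (exact two-sided permutation p = 0.2). The sum differed by -0.06 (SE 0.10, adjusted p = 1 in edgeR) on the log2 scale. The TOMM6 to TOMM7 log2 ratio averaged -1.36 in both groups (SD 0.20 and 0.15, n = 3, exact permutation p = 1). Across all 18 libraries, 4 had a TOMM6 share under 50%, the 3 treated MHCC-97H libraries and the MDA-MB-231 DMSO replicate 1, and the other 14 lay between 75.4% and 93.0%.

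TOMM7 was slightly lower in the treated MHCC-97H libraries. It stood at 267, 259 and 270 CPM in DMSO and at 230, 227 and 236 CPM after H3B-8800, with no overlap, a log2 difference of -0.20 (SE 0.09). TOMM5, the remaining small subunit, was at 54.6, 54.0 and 55.8 CPM in DMSO and at 49.0, 45.6 and 63.0 CPM after treatment, ranges that overlapped, with a log2 difference of -0.06 (SE 0.14). Neither of these small subunits showed a difference of the size of TOMM6 under this label. Under the other labels TOMM7 differed by 0.11 (SE 0.09, adjusted p = 0.83) for MDA-MB-231 and by -0.13 (SE 0.09, adjusted p = 1) for HCT-116 in edgeR. TOMM5 differed by 0.01 (SE 0.14) and -0.24 (SE 0.14, adjusted p = 1 in both).

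**Figure D3:**
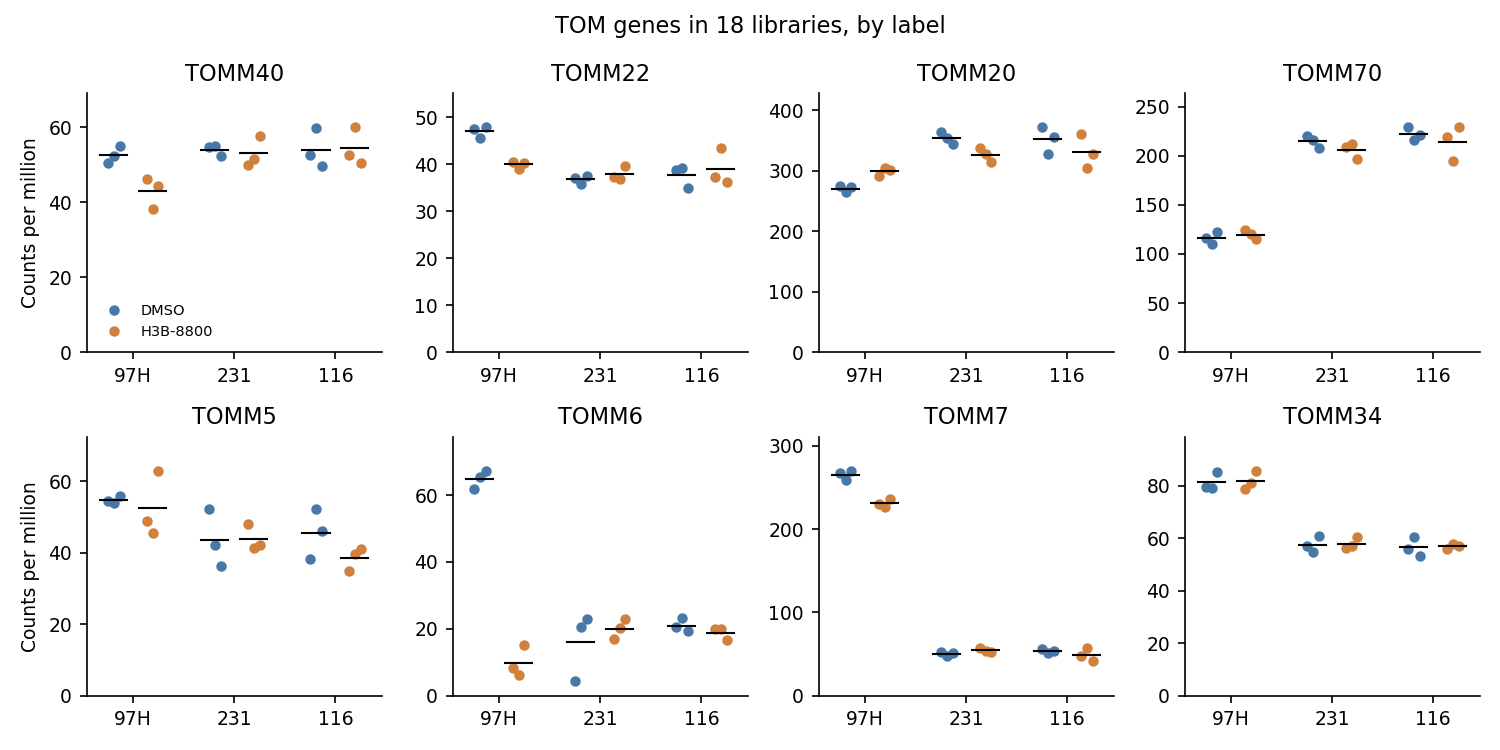
TMM-scaled CPM of the 8 TOM genes (1 panel each, y axis from 0), with 3 points per group, DMSO in blue and H3B-8800 in orange, and the mean as a bar, for the MHCC-97H (97H), MDA-MB-231 (231) and HCT-116 (116) labels. TOMM6 is the gene whose MHCC-97H treated points (6.05 to 15.1) lie far below their controls (61.7 to 67.3), and TOMM7 differs between labels far more than between treatments.

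The channel TOMM40 was at 50.4, 52.3 and 55.0 CPM in MHCC-97H DMSO libraries and at 46.3, 38.3 and 44.3 CPM after treatment, without overlap. Its log2 difference was -0.29 (SE 0.09). TOMM22, the central receptor, was at 47.5, 45.6 and 47.9 CPM in DMSO and at 40.6, 39.0 and 40.3 CPM after treatment, again without overlap, with a log2 difference of -0.23 (SE 0.07). TOMM20, the presequence receptor, went the other way, at 274, 265 and 273 CPM in DMSO and 292, 305 and 302 CPM after treatment, a log2 difference of 0.15 (SE 0.06). TOMM70, the receptor for carrier-type precursors, overlapped between groups (116, 110 and 122 against 124, 120 and 115 CPM), with 0.05 (SE 0.06). TOMM34 overlapped too, at 79.5, 79.1 and 85.2 against 78.7, 81.1 and 85.7 CPM, with 0.01 (SE 0.06).

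In all, 3 of 8 members passed an adjusted p of 0.05 in edgeR in this comparison, TOMM6, TOMM22 and TOMM40, all lower, where 27.6% of the 14234 tested genes were called and 14.7% were called lower. The contrast was used to choose the members, so this count is a description. Treated and control libraries did not overlap for 5 members, lower for TOMM6, TOMM7, TOMM22 and TOMM40 and higher for TOMM20, beside 47.6% of all tested genes, 28% lower and 19.6% higher. The median log2 difference over the 8 members was -0.13, and -0.058 over all tested genes. Which members besides TOMM6 were called moved with the processing. When each library's dependence on transcript GC content and length was removed, TOMM40 changed to -0.06, TOMM20 to -0.01, TOMM34 to 0.23 and TOMM70 to -0.15, whereas TOMM6 stayed at -2.65 and TOMM22 at -0.19. With library totals as the scale, TOMM40 (-0.16) and TOMM22 (-0.10) lost their calls, as they did with upper-quartile factors, TOMM20 (0.28) gained one, and TOMM5 turned from -0.06 to 0.07. The count was 1 without MHCC-97H DMSO replicate 3 or without H3B-8800 replicate 2, leaving only TOMM6, and 5 without HCT-116 H3B-8800 replicate 2.

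**Figure D4:**
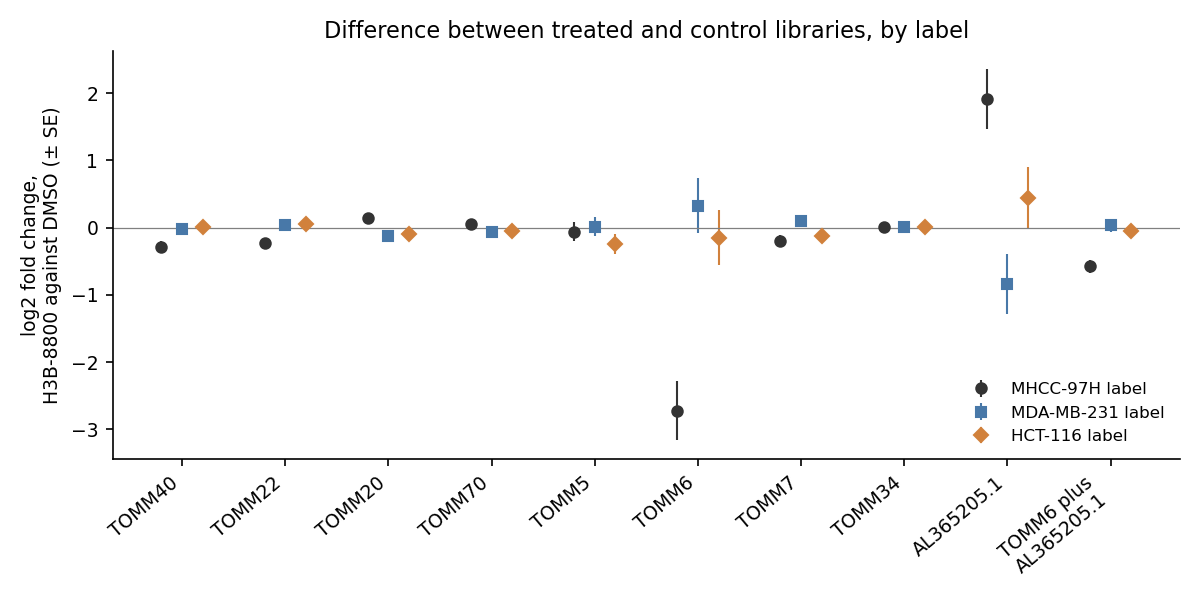
Fitted log2 difference between H3B-8800 and DMSO libraries, with its standard error as a bar, for each member, for AL365205.1 and for the sum of TOMM6 and AL365205.1, by label. TOMM6 (-2.72) and AL365205.1 (1.91) stand apart under the MHCC-97H label, their sum lies at -0.58, and the other members lie between -0.29 and 0.15.

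No member was called under either of the labels that the choice of members did not use. In DMSO, 5 of 14234 tested genes were called between these labels. Their results are therefore not taken as evidence from separate lines. The edgeR fit called 0 of 8 under the MDA-MB-231 label, where 0.0351% of tested genes (5 of 14234) were called, and 0 of 8 members had an unadjusted p under 0.05. It likewise called 0 of 8 under the HCT-116 label, also beside 0.0351%, with 0 of 8 at an unadjusted p under 0.05. DESeq2 and limma voom called no member under either label. Members other than TOMM6 differed by -0.12 to 0.11 on the log2 scale under MDA-MB-231 and by -0.24 to 0.05 under HCT-116. For the mean of both labels 0 of 8 were called, where 0.0422% of genes were, and 1 member, TOMM20, had an unadjusted p under 0.05. TOMM20 differed by -0.10 (SE 0.04, adjusted p = 0.6 in edgeR) in that mean.

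TOMM20 was the 1 member whose treated and control libraries did not overlap under the MDA-MB-231 label, at 364, 355 and 345 CPM in DMSO and 338, 327 and 315 CPM after treatment, beside 18.5% of all tested genes without overlap there, 9.86% with treated libraries lower. Its log2 difference there was -0.12 (SE 0.06, adjusted p = 0.71 in edgeR). No member separated the groups under the HCT-116 label, where 7% of tested genes did. The response to H3B-8800 was also compared directly between these 2 labels. That difference was called for 0 of 8 members, beside 0.0351% of tested genes, with values of -0.26 to 0.04 for members other than TOMM6. For TOMM6 it was -0.48 (SE 0.59), but -0.03 (SE 0.35) without MDA-MB-231 DMSO replicate 1 and -0.83 (SE 0.60) without its replicate 3. The standard errors for members other than TOMM6 and TOMM5 under a label were 0.06 to 0.09. The TOMM20 difference of -0.12 was far from a call at adjusted p = 0.71 in edgeR. Changes well above that size could therefore have gone undetected.

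Levels in DMSO differed between labels more than between treatments for several members. TOMM7 averaged 265 ± 6.15 CPM under the MHCC-97H label, 50.6 ± 2.95 under MDA-MB-231 and 53.5 ± 2.37 under HCT-116 (SD, n = 3). It was 5.25-fold higher than under MDA-MB-231 (log2 2.39, SE 0.09, adjusted p = 8.2e-13) and 4.97-fold higher than under HCT-116 (log2 2.31, SE 0.09, adjusted p = 1.2e-12) in edgeR. TOMM70 was lower under the MHCC-97H label, at 116 ± 5.63 CPM against 215 ± 6.05 and 222 ± 6.71 (SD, n = 3), with log2 differences of -0.89 (adjusted p = 7.9e-10) and -0.94 (adjusted p = 4.1e-10), SE 0.06 in both. TOMM20, the presequence receptor, was also lower, at 270 ± 4.95 CPM against 355 ± 9.7 and 352 ± 22.7 (log2 -0.39 and -0.38, SE 0.06, edgeR adjusted p = 1.5e-05 and 1.9e-05).

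TOMM34 was higher under the MHCC-97H label, at 81.3 ± 3.41 CPM against 57.6 ± 3.19 and 56.5 ± 3.77 (SD, n = 3; log2 0.50 and 0.52, SE 0.06, edgeR adjusted p = 1.4e-06 and 7.4e-07). TOMM22 was higher by 0.35 and 0.32 (SE 0.07, edgeR adjusted p = 0.00021 and 0.00051). TOMM5 was higher by 0.33 than under MDA-MB-231 (SE 0.14, edgeR adjusted p = 0.042) and by 0.27 than under HCT-116 (SE 0.14, adjusted p = 0.097, not called). TOMM40, the channel, stood at 52.6 ± 2.3, 54.0 ± 1.47 and 54.0 ± 5.26 CPM (SD, n = 3) and did not pass the test (log2 -0.04 against each, SE 0.09, edgeR adjusted p = 0.7 and 0.71). TOMM6, chosen with its MHCC-97H level known, was at 64.8 CPM there against 16.0 (21.7 without DMSO replicate 1) and 20.9 CPM, and the sum with AL365205.1 was at 75.7 against 24.0 and 24.1 CPM.

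Of the 7 members other than TOMM6, 6 passed the test between MHCC-97H and MDA-MB-231, 4 higher and 2 lower, where 82.7% of all tested genes were called, 39.5% higher and 43.2% lower. Between MHCC-97H and HCT-116 5 of 7 passed, 3 higher and 2 lower, beside 82.5% of genes, 39.5% higher and 43% lower. These shares are near those of all genes. Between HCT-116 and MDA-MB-231 in DMSO 0 of 8 were called, beside 0.0351%, with log2 differences of -0.03 to 0.08 for members other than TOMM6 and 0.39 (SE 0.41, edgeR adjusted p = 1) for TOMM6. Without MDA-MB-231 DMSO replicate 1 the TOMM6 value turned to -0.05 (SE 0.26), and without replicate 3 it was 0.74 (SE 0.46). With library totals as the scale, the median over all genes went from -0.091 to -0.372 (MHCC-97H against MDA-MB-231) and from -0.08 to -0.337 (against HCT-116), and TOMM22 and TOMM5 were no longer called, at 0.07 and 0.05 against MDA-MB-231, while TOMM40 was then called lower against both labels (-0.32 and -0.30).

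Per kb of exon, the order of levels differed between labels. In MHCC-97H DMSO libraries TOMM7 was highest at 152 ± 3.51 CPM per kb, followed by TOMM6 at 102 ± 4.56 and TOMM20 at 76.3 ± 1.4 (SD, n = 3). TOMM34 followed at 39.4 ± 1.65. TOMM70 and TOMM22, both at 21.5, did not differ beyond their spread, nor did TOMM5 (15.0 ± 0.256) and TOMM40 (14.6 ± 0.637). Under the MDA-MB-231 label TOMM20 led at 100 ± 2.74 CPM per kb, with TOMM70 next at 39.9 ± 1.12. TOMM7 (28.9 ± 1.69), TOMM34 (27.9 ± 1.55) and TOMM6 (25.0 ± 15.7) overlapped, and TOMM22, TOMM40 and TOMM5 followed at 16.8, 15.0 and 11.9. For TOMM6 the overlap came from DMSO replicate 1, at 7.05. Its replicates 2 and 3, at 32.3 and 35.8, lay above the highest TOMM7 (30.3) and TOMM34 (29.6) libraries. The small subunits TOMM6 and TOMM7 thus ranked above the receptors under the MHCC-97H label and below TOMM20 and TOMM70 under the MDA-MB-231 label. HCT-116 libraries had the same leading pair, TOMM20 at 99.4 ± 6.41 and TOMM70 at 41.2 ± 1.25. Reads were not assigned here to isoforms, so a level per kb uses the merged exons of all annotated transcripts.

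**Figure D5:**
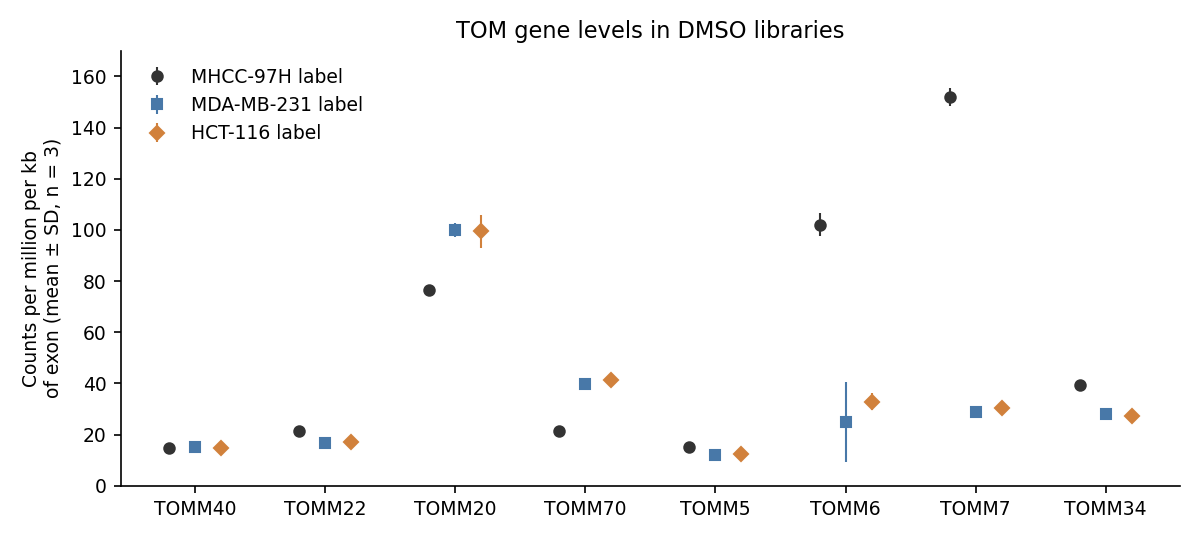
Mean level in DMSO libraries in CPM per kb of exon (points) with the SD over 3 libraries (bars), by gene and label. TOMM7 stands at 152 under the MHCC-97H label against 28.9 and 30.5 under the other labels, and the bar of TOMM6 under MDA-MB-231 is wide (SD 15.7 CPM per kb), with DMSO replicate 1 far below the other 2 libraries.

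The rest of the import pathway was described with 59 genes in 7 lists, of which 58 were tested (TOMM20L, with at most 7 counts, was not). In the treated MHCC-97H libraries 4 of 58 were called higher and 18 lower, beside 12.9% of all tested genes called higher and 14.7% called lower, with a median log2 difference of -0.15 over the lists and -0.058 over all genes. The disulfide relay of the intermembrane space, which folds small cysteine-rich proteins as they enter, had 3 of 3 genes lower: GFER (-0.47, SE 0.10), CHCHD4 (-0.38, SE 0.09) and AIFM1 (-0.19, SE 0.06). GFER and AIFM1 were named after their values were seen. In the sorting and assembly machinery, which inserts barrel proteins into the outer membrane, and its companions, 3 of 6 were lower, among them MTX1 (85.3 ± 2.84 to 67.8 ± 3.08 CPM) and SAMM50 (24.3 ± 0.855 to 20.3 ± 1.29 CPM; SD, n = 3).

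The TIM23 translocase of the inner membrane and its motor had 2 of 12 higher and 4 lower. HSPA9, the matrix chaperone of the motor, was higher (275 ± 4.83 to 352 ± 13.4 CPM, SD, n = 3), whereas TIMM44 (-0.29, SE 0.08) and TIMM50 (-0.27, SE 0.09) were lower. The TIM23 channel subunits were not called, TIMM23 at -0.16 (SE 0.10) and TIMM17A at 0.00 (SE 0.07). Of the carrier translocase and small TIM chaperones 1 of 9 was called, TIMM13, and of the presequence processing and folding genes 1 of 8, PMPCA; both were lower. Among porins and fusion and fission genes of the outer membrane 1 of 11 was called higher and 4 lower, while VDAC1, a porin, was not called (-0.06, SE 0.08). Among TOM paralogs and cytosolic delivery factors 1 of 9 was called higher and 2 lower, and TOMM40L, a paralog of the channel, was not called (-0.24, SE 0.13). No import gene approached the size of the TOMM6 difference: the widest called values in either direction were -0.47 (GFER) and 0.58 (GRPEL2, SE 0.17), the latter named after its value was seen.

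These counts moved with the processing. With library totals 7 were called higher and 4 lower, and after removal of the trend with GC and length 1 higher and 8 lower. Leaving out MHCC-97H DMSO replicate 3 gave 8 calls. Under the MDA-MB-231 label, under the HCT-116 label and for their mean, 0 of 58 import genes were called, in edgeR and with each alternative applied to those labels.

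Over the 18 libraries, with each label centred on its own mean, the log2 CPM of TOMM6 was most like that of HNRNPA0 (Pearson r = 0.91), TRAPPC2L (0.90), EML2 (0.89), SLC50A1 (0.88) and TMEM200B (0.88), among 9233 genes averaging at least 10 CPM. These are descriptions over libraries that share depth and scaling and that include the treated MHCC-97H libraries by which TOMM6 was chosen. Their own differences in the MHCC-97H libraries were far smaller than that of TOMM6, from -0.21 for HNRNPA0 to -0.47 for TMEM200B. AL365205.1 had r = -0.91. Among the members r was 0.67 for TOMM22, 0.64 for TOMM40 and 0.42 for TOMM7, was 0.12 and 0.02 for TOMM34 and TOMM5, and was negative for TOMM70 (-0.39) and TOMM20 (-0.58).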

How the data were processed

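The authors deposited whole-number read counts for 20263 Ensembl genes in 18 libraries. Per the submitters' processing notes, fastp and HISAT2 were used with GRCh38. Not given in the sources used here are versions, counting tool, annotation release and strand setting. Labels do not say that replicates were separate cultures, so p-values measure the spread between these samples. GENCODE 29 (GRCh38) matched 20224 genes and gave exons and sequence.

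The fit used edgeR 4.0.16 under R 4.3.3, with TMM scaling, filterByExpr by group, 1 mean per group over all 18 libraries and the robust quasi-likelihood F test, Benjamini-Hochberg adjusted over 14234 genes and called under 0.05. The fit was run on simulated counts with known differences set only under the MDA-MB-231 label. That simulation held no outlying library and no genes with overlapping exons, so it does not check the TOMM6 results. CPM values are scaled by TMM factors, except marker genes. Alternatives used DESeq2 1.42.0, limma voom (limma 3.58.1), other scalings and filters, 6 libraries only, a replicate block, removal of a GC and length trend (splines with 5 degrees of freedom), and leaving out each library; leaving out both HCT-116 libraries numbered 2 was added after seeing the data. Named genes were the members, their overlapping neighbours, 16 fixed import genes, and the 5 genes most like TOMM6. Members and lists were chosen with earlier results of these data known.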

Additional observations from a re-analysis of the deposited data

Results flagged for a closer look

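TOMM20 was higher in every treated library than in every control library under the MHCC-97H label (292 to 305 against 265 to 274 CPM) and lower in every treated library than in every control library under the MDA-MB-231 label (315 to 338 against 345 to 364 CPM). Of all tested genes, 19.6% had every treated library higher under the MHCC-97H label. Under the MDA-MB-231 label 9.86% had every treated library lower. The TOMM20 log2 differences were 0.15 (SE 0.06) and -0.12 (SE 0.06), which are 0.27 apart. This difference between labels was not tested, because the MHCC-97H contrast was used in choosing the members. After removal of the dependence on GC and length, the TOMM20 values were -0.01 and -0.03.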

How the results depend on the processing

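Of 1808 alternative values of single members, 1779 kept their side of the threshold or, where no test was made, moved by less than the replicate spread, 14 moved further, and 11 lost and 4 gained a call. Of these values 120 changed sign, none of them called with the settings of the report. The lost and gained calls concern tested contrasts only and were of TOMM5, TOMM22 and TOMM40 in DMSO. Calls of members under the MHCC-97H label ran from 1 to 5 when single libraries were left out, and were 5 without both HCT-116 libraries numbered 2. Import genes called there numbered 8 to 24 when single libraries were left out, 11 with library totals, 9 after removal of the GC and length trend, and 14 with that and the replicate block. Over all genes, the MHCC-97H label had 3922 calls, 2181 with the trend removed and 2141 to 4455 when single libraries were left out. The MDA-MB-231 label had 5, but 49 in DESeq2, 14 with its 6 libraries alone, 15 without both HCT-116 libraries numbered 2, and 4 to 8 with single libraries left out. The HCT-116 label had 5, but 22 in DESeq2, 1 with its 6 libraries alone and 3 to 15 with single libraries left out. The mean of both had 6, but 68 in DESeq2, 24 with the replicate block, 16 with block and trend removal, 11 without both libraries numbered 2, and 6 to 22 with single libraries left out. For the summed TOMM6 and AL365205.1 level under the MHCC-97H label, library totals gave -0.445. Leaving out single libraries moved the difference in TOMM6 share under MDA-MB-231 from -3.36 to 28.6 percentage points, the lowest without DMSO replicate 1, its log2 ratio to TOMM7 from -0.27 to 0.93, and that ratio under HCT-116 from -0.08 to 0.11, on both sides of 0. The cause of these shifts was not tested. Same-numbered treated and control libraries deviated together at r of -0.05 to 0.26 across genes averaging at least 1 CPM, where no label had every pair above 0.1, so the numbers were not taken as pairs. This depends on the filter: over genes averaging at least 10 CPM the 3 HCT-116 pairs were at 0.18, 0.45 and 0.13, while the other labels still had pairs at or below 0.1. With the replicate block 4 members were called under the MHCC-97H label, TOMM20 being added, and 0 under the other labels. Depth limits TOMM6 least in MHCC-97H DMSO libraries, with 1614 to 2180 counts, and most in the MDA-MB-231 DMSO replicate 1, with 180.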

Other observations

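For 11 tested genes, all exonic bases lie inside the exons of another tested gene on the same strand, as TOMM6 does. Under the MHCC-97H label 2 of these 11 inner genes (18.2%) were called after H3B-8800, beside 27.6% of all tested genes. In 1 of the 11 pairs, TOMM6 with AL365205.1, both genes were called in opposite directions. TOMM6, among the 2 called inner genes, was chosen for its fall in this comparison. This pair was therefore the starting point of the count and not a result of it.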
